A study of Mus musculus with 8 samples.

Results

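The Spata genes are mouse genes named for being associated with spermatogenesis, and 29 of the 54087 gene entries in the deposited tables carry a symbol made of Spata and a number. They were chosen by that symbol alone, and no measured value entered the choice. Their levels were followed in RNA from whole testes of C57BL/6 males that were Dnmt3A KO/KO or Dnmt3A WT/WT, taken at 25 or 19 days post partum (dpp). The 4 groups were KO at 25 dpp, WT at 25 dpp, KO at 19 dpp and WT at 19 dpp, with 2 libraries each and 8 in all. Dnmt3a encodes a DNA methyltransferase that lays down new methylation in the male germ line before birth. The labels do not give the deleted part of the gene, whether the deletion covers the whole body, or whether the replicates are separate animals, so the p-values below measure the spread between these libraries, which may be technical.

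A Spata number is a name and does not mark a family. As a set these proteins have no structure in common, and they are known from different steps of germ cell life. Some are relatives all the same: Spata2 and Spata2l, Spata5 and Spata5l1, and Spata31d1a and Spata31d1b. In the first wave of mouse spermatogenesis, germ cells enter meiosis, pass through the long pachytene stage, become round spermatids after the meiotic divisions, and then elongate while they build the acrosome, the neck, the mitochondrial sheath and the tail. Spata22 acts in meiotic recombination, Spata16 in the acrosome, Spata6 in the joint of sperm head and tail, Spata19 and Spata33 in the sperm midpiece, and Spata46 in the shaping of the sperm head. Spata2, Spata5, Spata5l1 and Spata13 also work in cells outside the germ line. The comparisons below ask when each gene came on in WT testes, how much of it was lacking in KO testes at each age, and whether the shortfall at 25 dpp differed from that at 19 dpp.

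The DNA just before the gene starts differs among these genes in its content of CpG, the dinucleotide that DNMT3A methylates. The following 250-base stretches end at the RefSeq start (GRCm38.p6), run 5′ to 3′ on the strand of the gene and carry each CG in capitals. They are shown because they span the range found among genes of different onset, which is described after the expression values. Spata2 at chr2:167492875-167493124 on the minus strand and Spata22 at chr11:73329491-73329740 on the plus strand belong to genes with similar levels at both ages in WT, and hold 31 and 22 CpG.
Spata2: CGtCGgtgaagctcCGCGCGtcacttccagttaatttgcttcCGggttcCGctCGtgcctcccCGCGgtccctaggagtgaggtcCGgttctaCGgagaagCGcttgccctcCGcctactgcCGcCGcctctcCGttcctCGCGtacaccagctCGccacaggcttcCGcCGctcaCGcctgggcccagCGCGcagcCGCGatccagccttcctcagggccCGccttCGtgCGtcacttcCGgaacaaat
Spata22: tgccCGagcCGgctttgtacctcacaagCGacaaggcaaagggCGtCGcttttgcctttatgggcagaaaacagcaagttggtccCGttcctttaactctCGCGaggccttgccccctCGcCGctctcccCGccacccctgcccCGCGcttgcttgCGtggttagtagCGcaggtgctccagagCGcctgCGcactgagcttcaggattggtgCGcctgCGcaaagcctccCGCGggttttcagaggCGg
Spata1 at chr3:146499754-146500003 on the minus strand belongs to a gene that rose late in WT, and holds 39 CpG.
Spata1: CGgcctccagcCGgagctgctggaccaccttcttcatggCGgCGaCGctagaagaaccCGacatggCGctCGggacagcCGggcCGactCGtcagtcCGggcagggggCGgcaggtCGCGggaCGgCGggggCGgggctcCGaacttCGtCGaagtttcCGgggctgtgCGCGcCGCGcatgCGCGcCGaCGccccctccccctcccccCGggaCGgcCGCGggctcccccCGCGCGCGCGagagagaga
Spata46 at chr1:170308569-170308818 and Spata31d1c at chr13:65032808-65033057, both on the plus strand, belong to genes without counts in any 19 dpp library, and hold 0 CpG in these stretches.
Spata46: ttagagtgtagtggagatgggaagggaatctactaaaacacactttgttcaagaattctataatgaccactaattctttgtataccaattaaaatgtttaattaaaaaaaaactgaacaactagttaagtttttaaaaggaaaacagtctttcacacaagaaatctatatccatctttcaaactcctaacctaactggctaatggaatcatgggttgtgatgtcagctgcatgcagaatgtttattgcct
Spata31d1c: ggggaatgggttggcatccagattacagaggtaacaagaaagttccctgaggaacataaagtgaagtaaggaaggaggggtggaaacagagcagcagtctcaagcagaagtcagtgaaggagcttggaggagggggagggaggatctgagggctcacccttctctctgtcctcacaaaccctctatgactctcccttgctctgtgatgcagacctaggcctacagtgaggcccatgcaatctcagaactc

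The 8 libraries held between 23870641 and 52601321 counts. Levels are given as CPM, the count relative to the TMM-scaled gene total of its library, and 3 counts in a library correspond to between 0.0812 and 0.126 CPM. All 29 Spata genes passed the filter on low counts, but 9 of them did not pass without the WT 25 dpp libraries. A difference of these 9 from that group was fixed by the filter, except for Spata31d1b, which also met its cut in WT at 19 dpp. For all 9, comparisons with that group are given as levels with no test. Those 9 are Spata3, Spata25, Spata31, Spata31d1b, Spata31d1c, Spata31d1d, Spata32, Spata45 and Spata46. Counts over the whole of Dnmt3a were 76.9 and 67.2 CPM in KO and 48.7 and 70.0 CPM in WT at 25 dpp, while those of 19 dpp had 114 and 112 CPM in KO and 147 and 141 CPM in WT. Since the deleted part is not given, these counts do not check the genotype. The tissue label was checked with Sertoli cell markers, whose 13 genes summed to between 1821 and 8218 CPM, and with germ cell markers given beside the results below. In whole-testis RNA, fewer cells of a type and less RNA per cell cannot be told apart.

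Summed over the 29 genes, Spata RNA was 448 and 571 CPM in the KO libraries and 6217 and 3236 CPM in the WT libraries of 25 dpp, and 275 and 339 CPM in the KO libraries and 487 and 660 CPM in the WT libraries of 19 dpp. The WT 25 dpp libraries thus held the most, and the KO 25 dpp libraries lay between the KO and WT libraries of 19 dpp or inside the WT range. In every library some Spata RNA was found, with 21 of the genes counted in each of the 8 libraries.

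**Figure D1:**
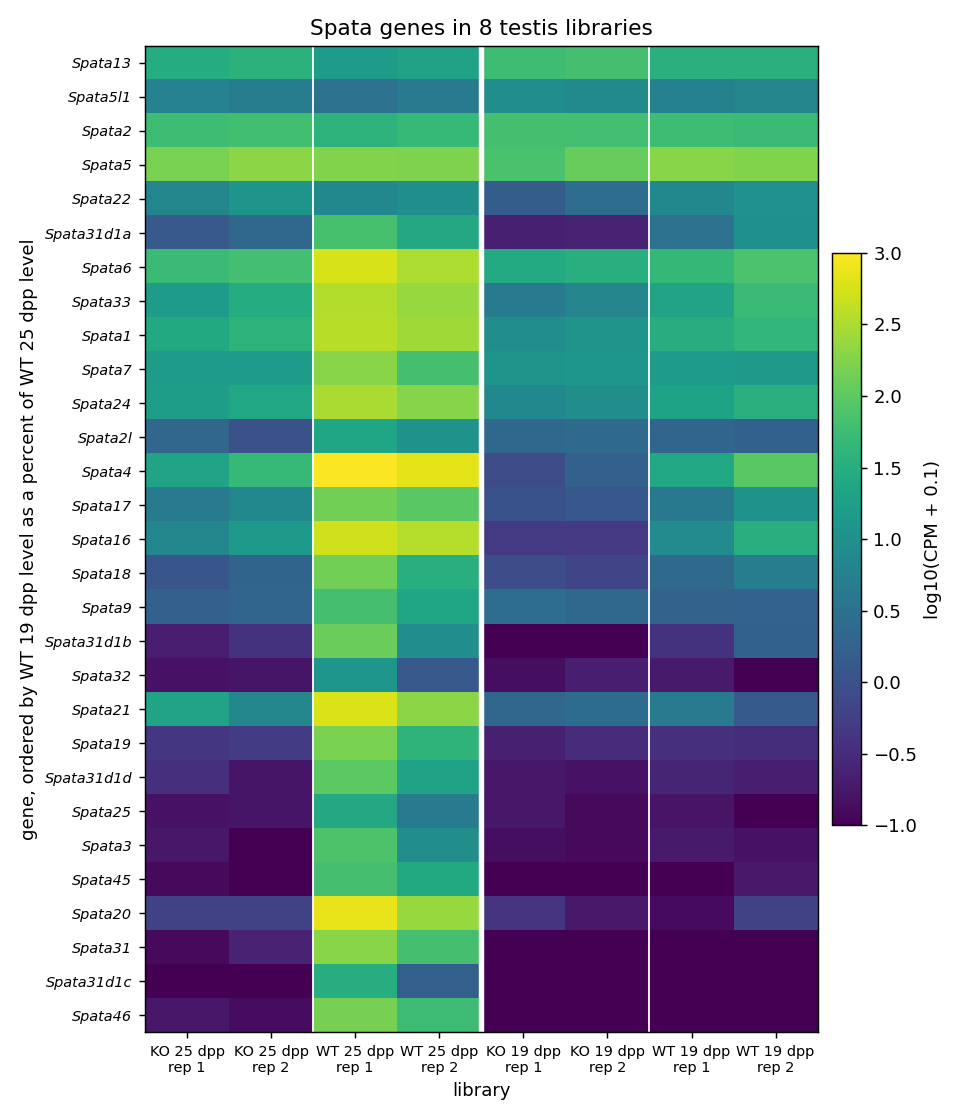
Level of the 29 Spata genes (rows) in the 8 libraries (columns), as log10(CPM + 0.1), with genes ordered by the WT 19 dpp level as a percent of the WT 25 dpp level. The lower rows are bright only in the 2 WT 25 dpp columns, while Spata13, Spata5l1, Spata2, Spata5 and Spata22 at the top have similar levels across most columns.

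In WT testes 15 of the 20 Spata genes that pass the filter without the WT 25 dpp libraries rose between the ages and 1 fell, by edgeR's quasi-likelihood test with Benjamini-Hochberg adjustment over all genes tested at 0.05. Of the 20167 genes that pass in the same way, 26.6% rose and 29.3% fell, and over all 23353 genes tested the shares were 34.9% and 25.4%. The median log2 fold change, 25 over 19 dpp, was 3.14 for the 20 Spata genes, against -0.21 for the 20167 genes. Each of the 15 rises was also called when any of the 8 libraries was left out, but with no filter on low counts that of Spata31d1a was lost (adjusted p = 0.0516). The 9 genes that do not pass without WT 25 dpp were all higher at 25 dpp, as the filter required of all but Spata31d1b. With no filter Spata31d1b and Spata31d1c were not called (adjusted p = 0.110 and 0.370). Genes called higher at 25 dpp by at least 3 on the log2 scale are named late, which gave 21 genes with those 9 among them. For those 9 the name only describes the levels and is no test result, as the filter drew on their WT 25 dpp level. Genes called higher by less are named rising, which gave 3, and genes that passed in neither direction are named steady. The line between late and rising falls among close values, with Spata1 at 3.07 and Spata7 at 3.12 just above it and Spata33 at 2.96 and Spata6 at 2.93 just below.

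Many late genes were at or near 0 in WT at 19 dpp. Spata46, a gene of the spermatid nuclear envelope and head at chr1:170308803-170312125, had 152 and 55.3 CPM in the WT 25 dpp libraries and 0 counts in both WT 19 dpp libraries. Spata31 had 194 and 65.2 CPM at 25 dpp and Spata31d1c had 30.7 and 1.52 CPM, again against 0 counts in both 19 dpp libraries. Taking 3 counts over the 19 dpp group as the floor, Spata31 was at least 2899-fold higher, Spata46 at least 2313-fold higher and Spata31d1c at least 365-fold higher at 25 dpp. All 3 are among the genes whose difference the filter fixed, and these bounds cover counting error only.

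Spata20, a thioredoxin-like gene tied in mouse to the joint of sperm head and tail (chr11:94478904-94486179), had 724 and 244 CPM at 25 dpp, against 0.0321 and 0.489 CPM at 19 dpp (log2 fold change 10.79, SE 0.960, adjusted p = 0.000515). Spata19, needed in mouse sperm for the mitochondrial sheath, had 156 and 39.9 CPM at 25 dpp, against 0.257 and 0.230 CPM at 19 dpp (log2 fold change 8.63, SE 0.831, adjusted p = 0.000607). Spata21, an EF-hand gene, had 597 and 202 CPM at 25 dpp, against 4.14 and 1.26 CPM at 19 dpp (log2 fold change 7.22, SE 0.960, adjusted p = 0.00155). In each of these genes the lower 25 dpp library stood far above the higher 19 dpp library. The 19 dpp level of Spata45 rested on 3 counts, and the ratio of its summed counts was 1041, with a 95% interval of 356 to 5048. For Spata25 the ratio was 519 on 2 counts (interval 143 to 4290), and for Spata32 it was 156 on 3 counts (interval 53.1 to 759).

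Another group of late genes already had clear counts at 19 dpp. Spata4, at chr8:54600781-54610098, had the highest level per length of the 29 genes, 774 CPM per kilobase of exon on average in WT at 25 dpp. Its libraries had 961 and 675 CPM at 25 dpp, against 23.8 and 94.7 CPM at 19 dpp (log2 fold change 3.79, SE 0.739, adjusted p = 0.00523). Spata16, a Golgi and acrosome gene whose loss gives round-headed sperm (chr3:26637620-26983212), had 513 and 358 CPM at 25 dpp, against 8.29 and 31.7 CPM at 19 dpp (log2 fold change 4.45, SE 0.687, adjusted p = 0.00240). The 19 dpp replicates of both genes differed from each other by close to 4-fold, with ratios of 3.97 and 3.82. Spata18, a mitochondrial quality control gene, had 142 and 33.5 CPM at 25 dpp, against 2.35 and 4.89 CPM at 19 dpp (log2 fold change 4.60, SE 0.770, adjusted p = 0.00307). Spata24 and Spata17, an IQ-motif gene, rose by 3.17 (SE 0.365) and 3.94 (SE 0.538) on the log2 scale, with adjusted p = 0.000891 and 0.00164. The other late genes that pass the filter without WT 25 dpp, Spata1, Spata2l, Spata7 and Spata9, rose by between 3.07 for Spata1 and 4.69 for Spata9.

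The 3 rising genes had smaller folds between the ages. Spata6, a gene of the sperm connecting piece, had 582 and 323 CPM at 25 dpp, against 46.0 and 72.6 CPM at 19 dpp (log2 fold change 2.93, SE 0.337, adjusted p = 0.000879). Spata33, which in mouse sperm ties calcineurin to mitochondria, had 344 and 240 CPM at 25 dpp, against 21.9 and 53.3 CPM at 19 dpp (log2 fold change 2.96, SE 0.506, adjusted p = 0.00330). Spata31d1a had 68.6 and 26.2 CPM at 25 dpp, against 3.02 and 10.2 CPM at 19 dpp (log2 fold change 2.84, SE 0.686, adjusted p = 0.0115). The 3 genes were thus low but plainly counted in both WT 19 dpp libraries.

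The steady genes were Spata2, Spata5, Spata5l1 and Spata22. Spata22, the partner of MEIOB and replication protein A in meiotic recombination, had 7.34 and 9.60 CPM at 25 dpp and 7.36 and 10.4 CPM at 19 dpp, and the ranges overlapped. Spata5, an AAA ATPase of ribosome maturation, had 177 and 171 CPM at 25 dpp and 196 and 175 CPM at 19 dpp, again with overlapping ranges. Spata2, an adaptor that ties the deubiquitinase CYLD to the linear ubiquitin ligase, had 38.9 and 48.5 CPM at 25 dpp and 58.1 and 53.9 CPM at 19 dpp, with adjusted p = 0.0699. Spata5l1, a relative of Spata5 in ribosome maturation, had 3.14 and 4.27 CPM at 25 dpp and 5.69 and 6.50 CPM at 19 dpp, with adjusted p = 0.0505. A p that misses the threshold does not show that these levels were equal.

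Spata13, at chr14:60634001-60764556, was the gene that fell. Its libraries had 16.4 and 20.3 CPM at 25 dpp, against 34.3 and 34.6 CPM at 19 dpp, and its log2 fold change was -0.91 (SE 0.178, adjusted p = 0.00405), a value that turned to 0.0745 when counts were scaled to Sertoli markers instead. Sertoli markers, whose summed level was 1821 and 2369 CPM in WT at 25 dpp and 4662 and 3698 CPM in WT at 19 dpp, fell in 11 of 13 cases, and their part in the change of Spata13 was not tested.

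Ordering the genes by the WT 19 dpp level as a percent of the WT 25 dpp level gave the sequence of onset. After Spata13 at 187%, Spata5l1 at 164%, Spata2 at 128%, Spata5 at 106% and Spata22 at 105% came a gap. It was followed by Spata31d1a at 14.0%, Spata6 at 13.1%, Spata33 at 12.9%, Spata1 at 11.9%, Spata7 at 11.5%, Spata24 at 11.1% and Spata2l at 10.6%. Those 7 values lie closer together than the replicates of the same genes, whose WT 19 dpp libraries differed by up to 3.38-fold, so their order is not resolved. Spata4 at 7.25%, Spata17 at 6.49%, Spata16 at 4.58%, Spata18 at 4.12% and Spata9 at 3.88% followed, and then Spata31d1b at 1.46%. The WT 19 dpp libraries differed by 3.97-fold for Spata4 and 3.82-fold for Spata16, so the order within this run is not resolved either. Below 1% stood Spata32, Spata21, Spata19, Spata31d1d, Spata25, Spata3, Spata45 and Spata20, from 0.698% down to 0.0538%, and Spata31, Spata31d1c and Spata46 had no counts at 19 dpp. Most of the values below 1% rest on few WT 19 dpp counts, such as 2 for Spata25 and 18 for Spata20, and their order is not resolved.

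The replicates themselves differed in these genes. In WT at 25 dpp, replicate 1 was higher than replicate 2 in all 24 late and rising genes, by between 1.39-fold for Spata1 and 20.2-fold for Spata31d1c. In the same 2 libraries the 10 elongating spermatid markers summed to 4076 and 647 CPM, and the 10 pachytene markers to 10001 and 7762 CPM. In WT at 19 dpp, replicate 2 had more Spata4, Spata16, Spata17, Spata33 and Spata31d1a than replicate 1, while the pachytene markers summed to 845 CPM in replicate 1 and 2059 CPM in replicate 2. Other genes went the other way: replicate 1 had more Spata21, at 4.14 against 1.26 CPM. It also had more Spata7, Spata9, Spata2l, Spata19 and Spata31d1d. The part of these cell markers in the spread of the Spata genes was not tested.

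**Figure D2:**
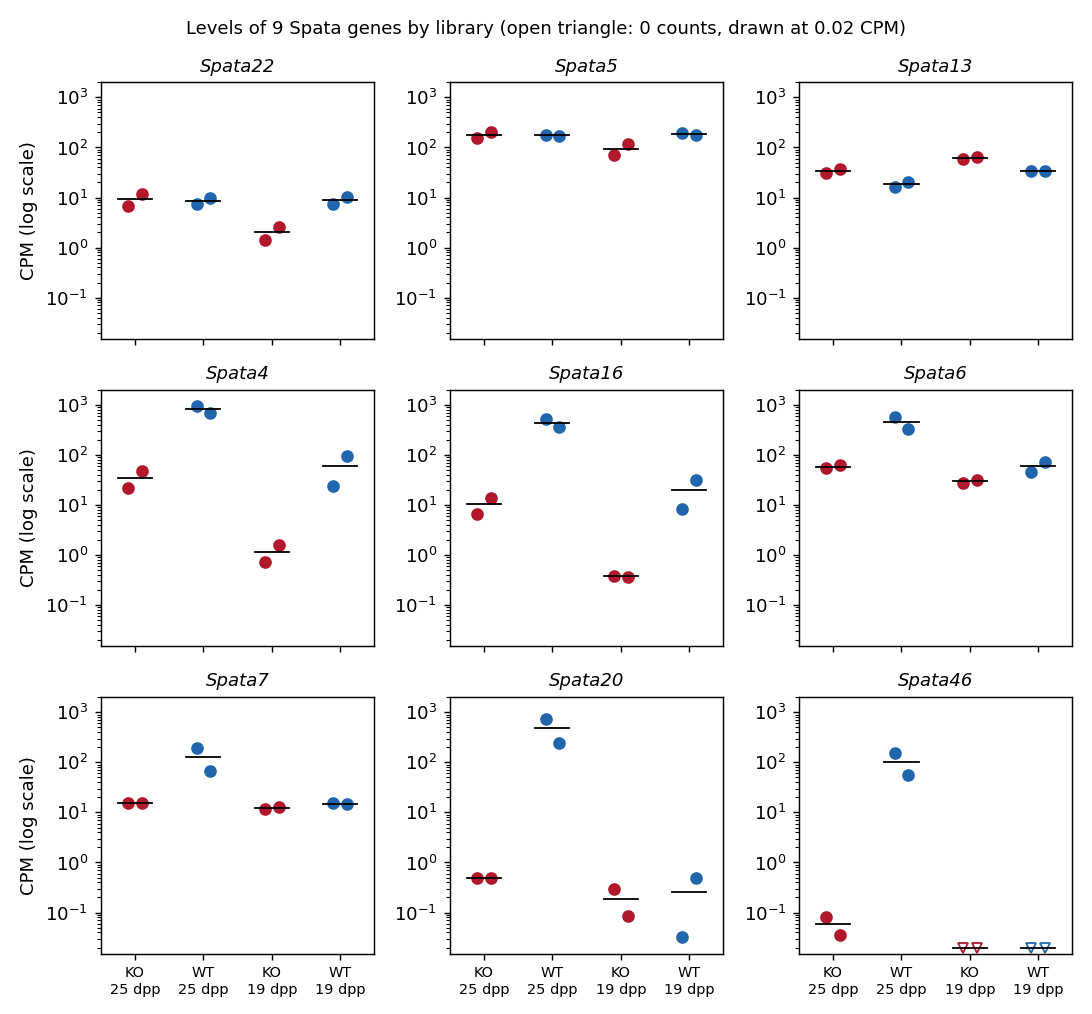
Level of 9 Spata genes in each library in CPM on a log axis, by group, with points for the 2 libraries and a bar at their mean. Spata22 and Spata5 are low in the KO 19 dpp group only, Spata4 and Spata16 are lower in KO at both ages, Spata6, Spata7, Spata20 and Spata46 stand out in WT at 25 dpp, and Spata13 is higher in KO at each age on this scaling, a direction that turns with scaling to Sertoli markers.

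In KO testes at 25 dpp, 15 of the 20 Spata genes that pass the filter without the WT 25 dpp libraries fell relative to WT and 2 rose. Of the 20167 genes that pass in the same way, 29.2% fell and 30.1% rose, and over all genes tested 37.4% fell and 26.1% rose. The median log2 fold change, KO over WT, was -3.63 for the 20 Spata genes, against 0.12 for the 20167 genes. The 15 genes that fell are those that rose in WT between the ages, and both comparisons share the WT 25 dpp libraries, so the match in members is no separate support. The other 9 genes were all lower in KO, which the filter fixed for all but Spata31d1b.

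Several genes were at or near 0 in KO at 25 dpp. Spata20 had 0.487 and 0.497 CPM in KO, against 724 and 244 CPM in WT (log2 fold change -9.93, SE 0.912, adjusted p = 0.000392). Spata46 had 0.0812 and 0.0355 CPM in KO, from 3 counts and 1 count, against 152 and 55.3 CPM in WT. Spata19 had 0.325 and 0.391 CPM in KO, against 156 and 39.9 CPM in WT (log2 fold change -8.09, SE 0.802, adjusted p = 0.000457). In these genes the KO libraries held less than 1% of the WT mean. Spata31 had 0.0271 and 0.142 CPM in KO, against 194 and 65.2 CPM in WT. Spata31d1c had no counts in either KO library, against 30.7 and 1.52 CPM in WT, and was at least 361-fold lower. Spata45 had 1 count over both KO libraries, and the ratio of summed counts, WT over KO, was 3084 with a 95% interval of 553 to 121851. Spata3 had 3 counts in KO, and its ratio, WT over KO, was 957 with an interval of 327 to 4641. With no filter Spata31d1b and Spata31d1c were not called here either (adjusted p = 0.0729 and 0.360).

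Genes that had already come on by 19 dpp in WT were also low in KO at 25 dpp, but with counts well above the floor. Spata4 had 21.6 and 47.5 CPM in KO, against 961 and 675 CPM in WT (log2 fold change -4.57, SE 0.768, adjusted p = 0.00245). Spata16 had 6.71 and 14.0 CPM in KO, against 513 and 358 CPM in WT (log2 fold change -5.40, SE 0.722, adjusted p = 0.00109). Spata6 had 53.8 and 63.6 CPM in KO, against 582 and 323 CPM in WT (log2 fold change -2.95, SE 0.337, adjusted p = 0.000593). These KO levels were 4.23%, 2.37% and 13.0% of the WT means. Spata33 had 16.1 and 29.4 CPM in KO, against 344 and 240 CPM in WT (log2 fold change -3.68, SE 0.523, adjusted p = 0.00133). Spata24 had 17.4 and 24.7 CPM in KO, against 314 and 185 CPM in WT (log2 fold change -3.57, SE 0.372, adjusted p = 0.000458). Spata7, known for the retina, where it acts at the connecting cilium of photoreceptors, had 15.8 and 15.3 CPM in KO, against 193 and 66.5 CPM in WT (log2 fold change -3.06, SE 0.463, adjusted p = 0.00160). Spata18 had 1.08 and 1.85 CPM in KO, against 142 and 33.5 CPM in WT (log2 fold change -5.92, SE 0.833, adjusted p = 0.00129). The other genes that fell, Spata1, Spata2l, Spata9, Spata17, Spata21 and Spata31d1a, had log2 fold changes between -3.30 for Spata1 and -4.83 for Spata31d1a.

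The 5 genes that did not fall at 25 dpp are those without a rise in WT. Spata13 had 30.3 and 37.3 CPM in KO, against 16.4 and 20.3 CPM in WT, a rise with a log2 fold change of 0.88 (SE 0.178, adjusted p = 0.00378), but its value was -0.73 with scaling to Sertoli markers. Spata2 had 57.3 and 62.0 CPM in KO, against 38.9 and 48.5 CPM in WT, and rose by 0.45 (SE 0.150, adjusted p = 0.0301), but its value was -1.16 with that scaling. The call of Spata2 was also lost with DESeq2 size factors (adjusted p = 0.0637) and without any of KO 25 dpp replicates 1 and 2, WT 25 dpp replicate 1 and KO 19 dpp replicates 1 and 2 (adjusted p between 0.0530 and 0.128). Spata5l1 had 5.82 and 4.94 CPM in KO and 3.14 and 4.27 CPM in WT, with adjusted p = 0.117. Spata5 had 157 and 200 CPM in KO and 177 and 171 CPM in WT, and Spata22 had 6.71 and 11.8 CPM in KO and 7.34 and 9.60 CPM in WT. The groups overlapped in these last 2 genes, whose log2 fold changes were 0.04 (SE 0.228) and 0.13 (SE 0.393), with adjusted p = 0.900 and 0.791. Sertoli scaling turned the values of Spata5, Spata5l1 and Spata22 to -1.59, -1.08 and -1.45, and it moved the median of all genes to -1.75.

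Cell markers moved in the same comparison. All 10 pachytene, 10 round spermatid and 10 elongating spermatid markers fell in KO at 25 dpp, where 37.4% of all genes fell. Many of the spermatid markers were at or near 0 in every library outside WT 25 dpp. These include Prm1, Prm2, Tnp2, Smcp, Hils1, Gapdhs, Sun5, Spaca3, Tex29 and Lyzl4, and the filter fixed their fall. The elongating spermatid markers summed to 0.812 and 1.49 CPM in KO, with Prm1, Prm2, Tnp2 and Hils1 at 0 in both libraries, against 4076 and 647 CPM in WT. Round spermatid markers summed to 39.4 and 71.1 CPM in KO and 2121 and 1176 CPM in WT, with Lyzl4 at 0 in both KO libraries, and pachytene markers to 592 and 1160 CPM in KO and 10001 and 7762 CPM in WT. Early meiotic markers summed to 2309 and 3097 CPM in KO and 3065 and 3240 CPM in WT, and Sertoli markers to 7031 and 5879 CPM in KO and 1821 and 2369 CPM in WT. The part of these cell types in the levels of the Spata genes was not tested. Of the 6 epididymis markers Crisp1 stood apart, with 11.3 CPM in KO 25 dpp replicate 1 and between 0 and 0.136 CPM in the other libraries. Counts of calls without that replicate also draw on the 9 genes that do not pass the filter without the WT 25 dpp libraries. The part of that replicate in the Spata levels was not tested.

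At 19 dpp the shortfall in KO testes was already present for a smaller set: 9 of the 29 Spata genes fell and 1 rose, against 13.2% and 8.8% of all genes tested. All these calls were among the 20 genes that pass the filter without the WT 25 dpp libraries, of which 15 fell at 25 dpp. Most of the other 9 were near 0 at 19 dpp. The median log2 fold change was -0.97 for the Spata genes and 0 for all genes, and -0.98 over 26 genes with those lacking counts in 1 group at their bound. Spata16 had 0.377 and 0.369 CPM in KO, against 8.29 and 31.7 CPM in WT (log2 fold change -5.73, SE 0.859, adjusted p = 0.00924). Spata4 had 0.713 and 1.59 CPM in KO, against 23.8 and 94.7 CPM in WT (log2 fold change -5.63, SE 0.865, adjusted p = 0.00956). Spata31d1a had 0.126 and 0.142 CPM in KO, against 3.02 and 10.2 CPM in WT (log2 fold change -5.58, SE 0.956, adjusted p = 0.0119). The KO means of these 3 genes were 1.87%, 1.94% and 2.02% of the WT means, the lowest shares among the genes that fell at this age.

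The other 6 genes that fell at 19 dpp did so by less. Spata22 had 1.43 and 2.61 CPM in KO, against 7.36 and 10.4 CPM in WT (log2 fold change -2.12, SE 0.419, adjusted p = 0.0137). Spata5 had 71.5 and 116 CPM in KO, against 196 and 175 CPM in WT (log2 fold change -0.98, SE 0.230, adjusted p = 0.0234). Both genes were low in KO at 19 dpp and overlapped WT at 25 dpp. Spata33 had 4.40 and 6.42 CPM in KO, against 21.9 and 53.3 CPM in WT (log2 fold change -2.79, SE 0.517, adjusted p = 0.0142). Spata24 had 7.21 and 9.26 CPM in KO, against 21.1 and 34.4 CPM in WT (log2 fold change -1.75, SE 0.355, adjusted p = 0.0168). Spata1 and Spata17 fell by 1.85 (SE 0.274) and 2.91 (SE 0.571), with adjusted p = 0.00811 and 0.0164.

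Spata13 rose in KO at 19 dpp, with 57.5 and 65.4 CPM in KO, against 34.3 and 34.6 CPM in WT (log2 fold change 0.84, SE 0.177, adjusted p = 0.0168), a value that became -0.0634 with scaling to Sertoli markers. Spata6 had 27.4 and 31.7 CPM in KO and 46.0 and 72.6 CPM in WT, with adjusted p = 0.0642, and Spata18 had 0.797 and 0.596 CPM in KO and 2.35 and 4.89 CPM in WT, with adjusted p = 0.0808. Spata31d1b had no counts in either KO library and 0.289 and 1.64 CPM in WT, at least 19.7-fold lower by its bound, with adjusted p = 0.181. Spata2 had 65.2 and 64.1 CPM in KO and 58.1 and 53.9 CPM in WT, with a log2 fold change of 0.21 that turned to -0.69 with Sertoli scaling, and Spata5l1 had 9.18 and 7.84 CPM in KO and 5.69 and 6.50 CPM in WT, with neither called. Spata7, with 11.7 and 12.6 CPM in KO and 15.4 and 14.5 CPM in WT, was not called either (adjusted p = 0.685). The remaining 13 genes were not called, and Spata31, Spata31d1c and Spata46 among them had 0 counts in all 4 libraries of this age.

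The calls at 19 dpp depended on single libraries. Without KO replicate 1 edgeR called none of the 29 genes and none of the 25019 genes tested in that setting, although 9 of the 29 fell with an unadjusted p under 0.05. The log2 fold changes of Spata16, Spata4 and Spata31d1a were then -5.74, -5.21 and -5.50. Without KO replicate 2, the genes still called were Spata1, Spata5 and Spata22, 3 that fell, against 4.58% of all genes. Without WT replicate 2, 6 fell, against 5.38% of all genes, and the adjusted p of Spata5, Spata22 and Spata24 became 0.0604, 0.0574 and 0.0552. Spata13 lost its call without any 1 of the 4 libraries of this age (adjusted p between 0.0562 and 0.103). At 19 dpp 10 of 10 pachytene markers and 9 of 10 early meiotic markers fell in KO. The pachytene markers summed to 143 and 184 CPM in KO and 845 and 2059 CPM in WT, the early meiotic markers to 396 and 749 CPM in KO and 2150 and 2534 CPM in WT, and the Sertoli markers to 8218 and 7273 CPM in KO and 4662 and 3698 CPM in WT. Of 8 stromal and endothelial markers 6 rose. Red blood cell markers summed to 369 and 56.5 CPM in KO and 56.3 and 128 CPM in WT, and Leydig cell markers to 760 and 779 CPM in KO and 220 and 464 CPM in WT. Among the 4 libraries of this age, KO replicate 1 was thus highest in red blood cell markers and WT replicate 1 lowest in Leydig cell markers. Their part in the Spata differences was not tested.

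**Figure D3:**
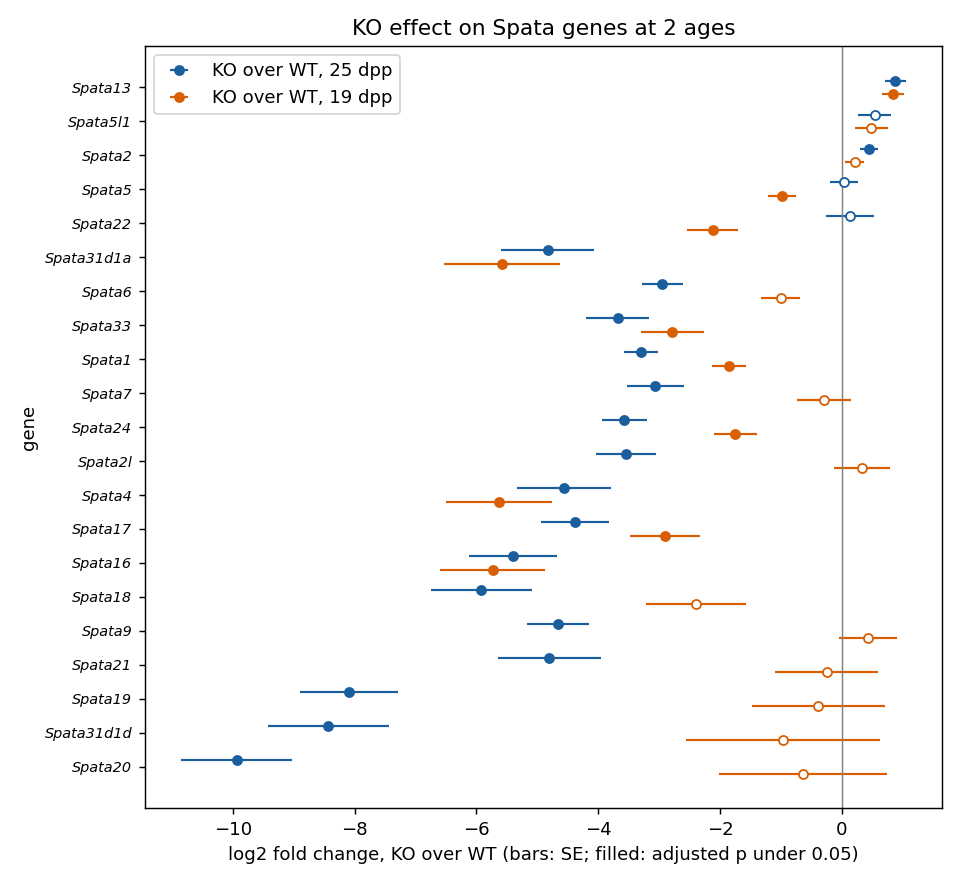
Log2 fold change of KO over WT with its SE for 21 Spata genes, at 25 dpp (blue) and 19 dpp (orange), filled where the adjusted p was under 0.05. The other 8 genes had 3 counts or fewer in some group and are not drawn, and the difference of Spata31d1d at 25 dpp was fixed by the filter. The filled points right of 0, those of Spata13 at both ages and of Spata2 at 25 dpp, turn below 0 with scaling to Sertoli markers.

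Of the 20 Spata genes that pass the filter without the WT 25 dpp libraries, 7 were called lower in KO at each age, against 10.9% of the 20167 genes that pass in the same way: Spata1, Spata4, Spata16, Spata17, Spata24, Spata31d1a and Spata33. Another 8 were called lower at 25 dpp and not at 19 dpp, against 17.9%, and 2, Spata5 and Spata22, at 19 dpp and not at 25 dpp, against 3.37%. A gene called at one age and not at another is not thereby shown to differ between them, and the difference was tested directly.

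That test of the difference, the KO effect at 25 dpp minus the KO effect at 19 dpp, called 9 Spata genes with a lower value at 25 dpp and 1 with a higher value, against 11.4% and 7.68% of all genes. Spata22 was the gene with the higher value: its KO effect was greater by 2.25 on the log2 scale at 25 dpp (SE 0.571, adjusted p = 0.0334). Spata9 and Spata2l, a relative of Spata2, had differences of -5.09 (SE 0.680, adjusted p = 0.00654) and -3.87 (SE 0.661, adjusted p = 0.0107), and these 2 calls stood without any 1 of the 8 libraries. In both genes the KO libraries of 19 dpp lay slightly above those of WT, with 2.56 and 2.16 CPM in KO and 1.77 and 1.72 CPM in WT for Spata9, and neither gene was called at that age. Spata20, Spata19 and Spata21 had differences of -9.29 (SE 2.18), -7.70 (SE 1.54) and -4.55 (SE 1.15), with adjusted p = 0.0313, 0.0208 and 0.0389. At 19 dpp Spata20 had summed counts of only 10 in KO and 18 in WT, and Spata19 of 11 and 16. The KO effects of these genes at 19 dpp were thus poorly measured, with SE 1.38 and 1.09. Spata7, Spata6, Spata24 and Spata1 had differences of -2.76 (SE 0.624), -1.94 (SE 0.449), -1.82 (SE 0.488) and -1.44 (SE 0.375), with adjusted p = 0.0280, 0.0286, 0.0430 and 0.0374. Spata4 and Spata16, with differences of 1.06 (SE 1.04) and 0.33 (SE 1.06), were not called (adjusted p = 0.521 and 0.896). For Spata5 the difference was 1.02 (SE 0.323, adjusted p = 0.0637). Without any 1 of the 4 KO libraries, 2 genes kept a lower value by this test, against between 3.53% and 5.15% of all genes, and the call of Spata22 was lost without any 1 of KO 19 dpp replicates 1 and 2, KO 25 dpp replicates 1 and 2, WT 19 dpp replicate 2 and WT 25 dpp replicate 1 (adjusted p between 0.0510 and 0.117). DESeq2 called 18 lower and 2 higher values, against 21.1% and 12.7% of all genes. Among the 18 are Spata3, Spata25, Spata31, Spata31d1d, Spata32, Spata45 and Spata46. The filter fixed their difference from WT at 25 dpp, so this count is not comparable with that share.

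Between the ages in KO testes, 9 Spata genes rose and 1 fell, against 10.2% and 8.87% of all genes. The median log2 fold change, 25 over 19 dpp, was 1.24, against 0 for all genes, and 0.96 over 28 genes with those lacking counts in 1 group at their bound. The 9 genes that rose are the 9 that fell in KO relative to WT at 19 dpp, and both comparisons share the KO 19 dpp libraries. Spata4 had 21.6 and 47.5 CPM at 25 dpp, against 0.713 and 1.59 CPM at 19 dpp (log2 fold change 4.85, SE 0.845, adjusted p = 0.0139). Spata16 had 6.71 and 14.0 CPM at 25 dpp, against 0.377 and 0.369 CPM at 19 dpp (log2 fold change 4.78, SE 0.857, adjusted p = 0.0148). Spata31d1a had 1.22 and 2.13 CPM at 25 dpp, against 0.126 and 0.142 CPM at 19 dpp (log2 fold change 3.58, SE 0.995, adjusted p = 0.0499). That call was lost when the replicate number was fitted as a block. In each of these 3 genes both 25 dpp libraries lay above both 19 dpp libraries.

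Spata22 had 6.71 and 11.8 CPM at 25 dpp, against 1.43 and 2.61 CPM at 19 dpp (log2 fold change 2.18, SE 0.420, adjusted p = 0.0146), and Spata5 rose by 0.93 (SE 0.230, adjusted p = 0.0312). Spata1, Spata17, Spata24 and Spata33 rose by 1.63, 2.47, 1.35 and 2.06. Spata13 fell by 0.86 (SE 0.177, adjusted p = 0.0174), and its call was lost with scaling to Sertoli markers. The call was also not kept in every fit with 1 library left out. Spata21 had 21.5 and 7.0 CPM at 25 dpp and 1.97 and 2.50 CPM at 19 dpp, and Spata6 had 53.8 and 63.6 CPM at 25 dpp and 27.4 and 31.7 CPM at 19 dpp, with adjusted p = 0.0678 and 0.0729. Spata46, Spata31 and Spata45 stayed near the floor at both ages: Spata46 had 4 counts over the 2 KO libraries of 25 dpp and 0 at 19 dpp, Spata31 had 5 and 0, and Spata45 had 1 and 0. Left out in turn, KO 19 dpp replicate 1 and KO 25 dpp replicate 2 each reduced the rises to 0, with 9 and 10 genes at an unadjusted p under 0.05. In these settings 0.012% and 0.888% of all genes rose, and the log2 fold changes were 4.44 and 4.18 for Spata4 and 4.79 and 4.16 for Spata16. Without KO 19 dpp replicate 2, 3 rose, against 3.69% of all genes, without KO 25 dpp replicate 1, 4 rose, against 4.14%, and limma-voom on all libraries called 5, against 8.38%. Early meiotic markers rose in 10 of 10 cases and pachytene markers in 8 of 10 between the ages in KO, and their part was not tested.

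KO testes at 25 dpp were then set beside WT testes at 19 dpp. By edgeR none of the 29 Spata genes differed, where 0.00856% of all genes were higher and 0.0685% lower in KO at 25 dpp, 18 genes in all. Before adjustment, 2 Spata genes had a p under 0.05, where 12.4% of all genes did. With DESeq2 the count was 1, for Spata31d1a, which was lower, where 2.68% of all genes were called higher and 2.73% lower. With limma-voom it was 0. The median log2 fold change was -0.03 for the Spata genes and -0.02 for all genes. Libraries of the 2 groups overlapped in 22 of the 29 genes, and in 57.7% of all genes tested. The 20 genes that pass the filter without the WT 25 dpp libraries had a median of -0.12 and include both genes with a p under 0.05. Most of the other 9 were near 0 in both groups, so a missing call or an overlap says little for them. A p that misses the threshold does not show equal levels.

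Of the 2 genes with an unadjusted p under 0.05, Spata21 had 21.5 and 7.0 CPM in KO at 25 dpp and 4.14 and 1.26 CPM in WT at 19 dpp (log2 fold change 2.41, SE 0.809, adjusted p = 0.320). Spata31d1a had 1.22 and 2.13 CPM in KO at 25 dpp and 3.02 and 10.2 CPM in WT at 19 dpp (log2 fold change -1.99, SE 0.703, adjusted p = 0.341). Spata6, Spata7, Spata9 and Spata22 had mean levels in KO at 25 dpp of 99.0%, 104%, 102% and 105% of the WT 19 dpp level. Spata4 stood at 58.3%, Spata16 at 51.8% and Spata18 at 40.5%. The pachytene markers summed to 592 and 1160 CPM in KO at 25 dpp and 845 and 2059 CPM in WT at 19 dpp, so the libraries of the 2 groups overlapped there as well.

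**Figure D4:**
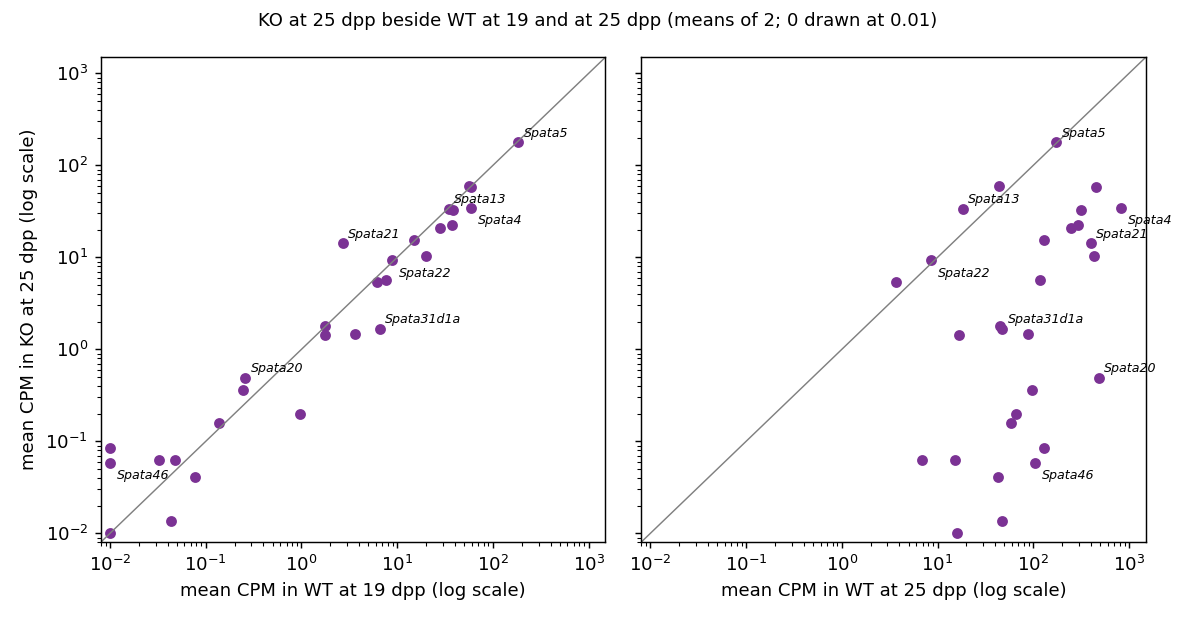
Mean CPM of each of the 29 Spata genes in KO at 25 dpp (vertical axis, log scale) against WT at 19 dpp (left) and WT at 25 dpp (right), with the line of equal levels. On the left most points lie near the line, with 22 of 29 genes overlapping between the groups, against 57.7% of all genes. Most of the 9 genes that do not pass the filter without the WT 25 dpp libraries are near 0 there on both axes. On the right 24 genes lie below the line, of which 15 pass the filter without the WT 25 dpp libraries and were called. Spata13 and Spata2, above the line, turn below it with scaling to Sertoli markers.

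Genes that work with the Spata proteins were read from short lists. For all of these lists, the shares over all genes tested were 26.1% higher and 37.4% lower in KO at 25 dpp. At 19 dpp they were 8.8% higher and 13.2% lower. Of 8 recombination genes tested around Spata22, 4 rose and 2 fell in KO at 25 dpp, and 6 fell in KO at 19 dpp. Dmc1, the meiotic recombinase, had 111 and 142 CPM in KO and 35.7 and 42.6 CPM in WT at 25 dpp, and 27.1 and 54.4 CPM in KO and 103 and 80.8 CPM in WT at 19 dpp, so it rose at 25 dpp (log2 fold change 1.69, SE 0.328, adjusted p = 0.00366) and fell at 19 dpp (log2 fold change -1.17, SE 0.324, adjusted p = 0.0417). Rpa1, the large subunit of replication protein A, had 88.1 and 90.9 CPM in KO, against 421 and 345 CPM in WT at 25 dpp (log2 fold change -2.10, SE 0.180, adjusted p = 0.000308).

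All 8 acrosome genes listed with Spata16 fell at 25 dpp and 5 fell at 19 dpp. Zpbp, an acrosomal matrix gene, had 15.9 and 23.5 CPM in KO, against 291 and 202 CPM in WT at 25 dpp (log2 fold change -3.65, SE 0.365, adjusted p = 0.000411), and Agfg1, a gene of acrosome formation, fell by 1.14 (SE 0.128, adjusted p = 0.000444). The 8 genes of head-tail coupling listed with Spata6 and Spata20 fell at 25 dpp, and 3 fell at 19 dpp. Sun5 and Spem1 among them had at most 0.230 CPM in every library outside WT 25 dpp, so the filter fixed their fall. Odf1, of the outer dense fibres, had 0.271 and 0.604 CPM in KO, against 304 and 84.9 CPM in WT at 25 dpp. With few counts outside WT 25 dpp, it is given as levels with no test. Pmfbp1, of the head-tail joint, had 0.0271 and 0.533 CPM in KO, against 347 and 119 CPM in WT (log2 fold change -9.82, SE 1.03, adjusted p = 0.000525). Of 10 genes of sperm calcineurin and the mitochondrial sheath, 9 fell and 1 rose at 25 dpp, and 4 fell at 19 dpp. Smcp, among those that fell at 25 dpp, had at most 0.0541 CPM outside WT 25 dpp, so the filter fixed its fall. Vdac2, the mitochondrial channel that Spata33 binds in mouse sperm, fell by 1.69 at 25 dpp (SE 0.151, adjusted p = 0.000315), and Pla2g6, a phospholipase, fell by 2.83 (SE 0.244, adjusted p = 0.000308).

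The lists around Spata5, Spata5l1 and Spata2 held calls in both directions at 25 dpp, where 26.1% of all genes rose and 37.4% fell. The lists were not compared with each other by a test. Of the 4 ribosome maturation genes tested beside Spata5 and Spata5l1, 1 rose and 1 fell at 25 dpp: Cinp had 30.4 and 33.2 CPM in KO, against 22.2 and 24.0 CPM in WT (log2 fold change 0.46, SE 0.161, adjusted p = 0.0360), and Mrto4 had 45.6 and 51.1 CPM in KO, against 148 and 127 CPM in WT (log2 fold change -1.51, SE 0.160, adjusted p = 0.000392). Of the 7 TNF and linear ubiquitin genes listed with Spata2, 5 rose and 1 fell at 25 dpp, and 3 rose at 19 dpp. Tnfrsf1a, a TNF receptor, rose by 1.29 at 25 dpp (SE 0.166, adjusted p = 0.000668), and Cyld rose by 1.15 (SE 0.142, adjusted p = 0.000586). The median of all genes stood at -0.12 in this comparison and at -1.75 with scaling to Sertoli markers, so rises of this size are not separated from that shift.

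The Spata31 genes form 2 groups on chromosome 13 of GRCm38. Spata31d1a, Spata31d1b and Spata31d1d lie at chr13:59699806-59710330, chr13:59712284-59719295 and chr13:59725925-59731752, with gaps of 1953 and 6629 bases. Spata31, at chr13:64917406-64923194, and Spata31d1c, at chr13:65033058-65038004, are 109863 bases apart. The neighbours Spata31d1a and Spata31d1b point away from each other and had different levels before the rise. Per kilobase of exon, Spata31d1a averaged 8.43 CPM in WT at 25 dpp and 1.18 in WT at 19 dpp, where Spata31d1b averaged 15.4 at 25 dpp and 0.225 at 19 dpp. The 2 genes share 20.96% and 24.9% of their 50-base stretches with each other, so reads from either may have been counted for the other or dropped, and their separate values are uncertain.

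Counting was uncertain for a few other genes. In GENCODE M21, Spata22 shares 80.5% of its exon bases with Gm49340 on the same strand, and 41.9% of the exon bases of Spata24 are also annotated as a gene written SPATA24. Spata5l1 is annotated there as a processed transcript of 1547 exon bases and not as protein-coding. Its counts may thus not stand for the RNA of the protein named above. Spata25 and Spata2l share 21.5% and 11.6% of their exon bases with Zswim1 and Cdk10 on the opposite strand, Spata4 shares 11.1% with 5330439A09Rik and Spata5 8.13% with Nudt6. The libraries were made with a stranded kit per the labels, but the strand setting of the counting is not given in the sources used here.

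Promoter windows of 300 bases, from 250 before to 50 after the RefSeq start (GRCm38.p6), were available for 27 of the 29 genes. Their CpG content, as the observed number over that expected from C and G, had a median of 0.382, against 0.384 for all 32851 windows of the table. It exceeded 0.6 in 11 of the 27 Spata windows, or 40.7%, and in 35.8% of all windows, where 0.6 was set after the values were seen. By onset, the ratio was above 0.6 in all 4 steady genes, in Spata13, in 2 of 3 rising genes and in 4 of 19 late genes. The medians were 0.890 for the steady and 0.198 for the late genes. Of the 19 late windows, 9 belong to genes that do not pass the filter without the WT 25 dpp libraries. All 9 were below 0.6, with the highest, that of Spata32, at 0.382. The low values of the late class thus rest in good part on genes that the filter kept for their WT 25 dpp level. The onset classes were not compared by a test. Spata1, Spata17, Spata18 and Spata7 were the late genes above 0.6, and each had at least 4.12% of its WT 25 dpp level at 19 dpp. The stretches printed above show the extremes: those of Spata2 and Spata1 are dense in capitals, and those of Spata46 and Spata31d1c have none, although the Spata46 window holds 4 CpG just after the start. For Spata3, Spata31d1a, Spata20, Spata13 and Spata9 the RefSeq start lies between 589 and 5129 bases from the GENCODE start, so those windows may not hold the promoter used in testis.

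Of 4 motifs searched on both strands, TGACGTCA, the cAMP response element bound by CREM, was found in the Spata7 window alone, or 3.70% of the Spata windows and 1.79% of all. TAACNG, the core bound by MYB factors such as A-MYB, was found in 9 Spata windows, or 33.3%, and in 23.3% of all. GTTGCC, one arm of the RFX X-box, was found in 4, or 14.8%, and in 12.5% of all, and ACAATGG, bound by SOX factors, in 3, or 11.1%, and in 3.66% of all. A match is a run of letters in the window and was not tested as a binding site.

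**Figure D5:**
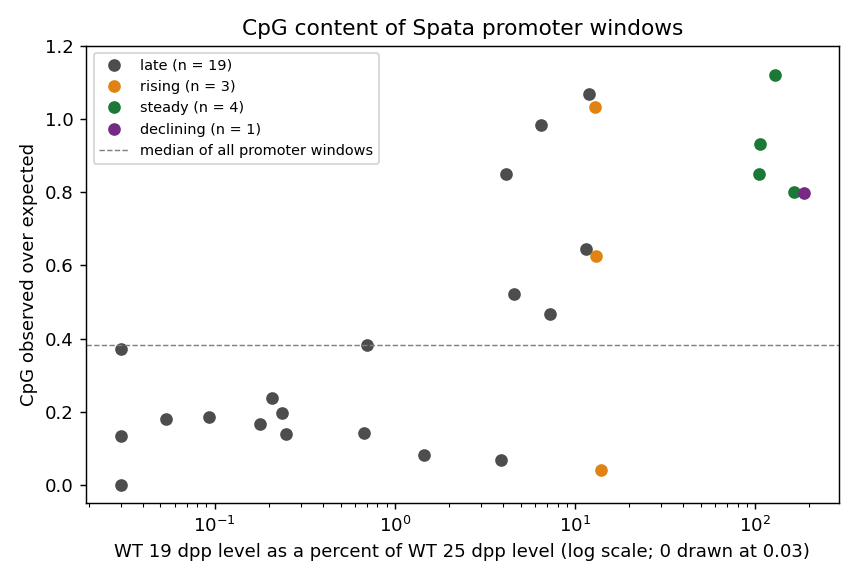
CpG observed over expected in the 300-base promoter window (vertical axis) against the WT 19 dpp level as a percent of the WT 25 dpp level (horizontal axis, log scale) for 27 Spata genes, coloured by onset class. The 4 steady genes and Spata13 lie above 0.6, 15 of 19 late genes lie below it, and the dashed line marks the median of all windows, 0.384. Of those 15 late genes, 9 do not pass the filter without the WT 25 dpp libraries.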

How the data were processed

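Poly(A) RNA of whole testis was measured in 8 libraries made with a stranded mRNA kit, per the labels' protocols. The deposited values are raw counts per gene, 1 file per library, and 1205 repeat families in the files were kept out. Per the submitters' processing notes, the authors used STAR 2.7.0a, featureCounts 1.5.1 and mm10. The strand setting, the handling of reads with several alignments and the annotation are not given in the sources used here.

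TMM scaling and the filter filterByExpr by group (minimum count 10) left 23353 genes, which were fitted together in edgeR 4.0.16 (R 4.3.3) with robust quasi-likelihood, 1 mean per group and 4 residual degrees of freedom. All p-values are Benjamini-Hochberg adjusted over all genes tested, with a threshold of 0.05. Each SE was derived from the log2 fold change and the F statistic. Total counts ran from 23870641 to 52601321. The floor is 3 counts, per library or over a group, and floors, bounds and 95% exact intervals cover counting error only. Coordinates are from GENCODE M21 (GRCm38, as mm10) by symbol, for all 29 genes, and promoter sequences are from RefSeq. The procedure was tested on simulated data.

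Genes to name were set by rule: in each comparison the 3 called genes with the largest rise and fall, those called against the majority, those called in the difference between the KO effects, those with a known mouse function, and up to 2 partners per list. The genes, lists and tests were chosen with earlier results of these data known. Brme1, 4930432K21Rik and Airim had no entry by that name.

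Alternatives were DESeq2 1.42.0 (Wald test, or its size factors alone), limma-voom 3.58.1, library totals, scaling to 13 Sertoli markers, no filter, at least 5 CPM in 2 libraries, a replicate block, and each library left out in turn. A group reduced to a lone library in this way was assumed to vary like the other groups, on 3 residual degrees of freedom.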

Additional observations from a re-analysis of the deposited data

Results flagged for a closer look

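The KO effect differed between the ages, by edgeR's test of the difference itself (25 minus 19 dpp, adjusted p under 0.05), for 10 Spata genes. The log2 difference was higher at 25 dpp for Spata22, at 2.25 (SE 0.571, adjusted p = 0.0334). It was lower for Spata20, at -9.29, Spata19, at -7.70, Spata9, at -5.09, Spata21, at -4.55, Spata2l, at -3.87, Spata7, at -2.76, Spata6, at -1.94, Spata24, at -1.82, and Spata1, at -1.44. Their adjusted p lay between 0.00654 for Spata9 and 0.0430 for Spata24. Spata20 and Spata19 had few counts in either genotype at 19 dpp, so the KO effect on them at that age was poorly measured.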

How the results depend on the processing

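Counts of genes called moved by over 1.5 times in the following cases. With scaling to Sertoli markers, 0 rose in KO at either age, 0 fell between the ages in either genotype, 2 rose between the ages in KO and 0 had a higher KO effect at 25 dpp. DESeq2 size factors left 1 that rose in KO at 25 dpp. Between the ages in WT, 2 fell with at least 5 CPM in 2 libraries, 2 with limma-voom and 4 with library totals. Between the ages in KO, 5 rose with limma-voom and 3 with no filter. For the difference between the KO effects, DESeq2 gave 18 lower and 2 higher values, no filter 3 and 2, and library totals and limma-voom each 2 higher. The 18 include Spata3, Spata25, Spata31, Spata31d1d, Spata32, Spata45 and Spata46, whose difference from WT at 25 dpp the filter fixed. Between KO at 25 dpp and WT at 19 dpp the Wald test gave 1 lower. The cause was not tested.

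With 1 library left out, the counts ran from 0 to 12 for falls and from 0 to 1 for rises in KO at 19 dpp, from 21 to 24 and from 1 to 2 at 25 dpp, from 1 to 3 for falls between the ages in WT, from 0 to 11 for rises and from 0 to 1 for falls between the ages in KO, and from 2 to 14 for lower and from 0 to 1 for higher KO effects. The 24 calls higher at 25 dpp in WT stood in each case, but with no filter those of Spata31d1a, Spata31d1b and Spata31d1c were lost (adjusted p = 0.0516, 0.110 and 0.370), as were those of Spata31d1b and Spata31d1c in KO at 25 dpp (0.0729 and 0.360). Calls at 25 dpp, and in the difference between the KO effects, of the 9 genes that do not pass the filter without WT 25 dpp are counted here. The filter fixed the difference of these genes from that group, except for Spata31d1b.

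Among log2 values called in the main edgeR fit or in the alternative, those that turned sign did so with Sertoli scaling. With it the median of all genes moved to -0.87 at 19 dpp and -1.75 at 25 dpp. Spata13 became 0.0745 between the ages in WT, -0.73 in KO at 25 dpp and -0.0634 in KO at 19 dpp. Spata2 became 0.63, -1.16 and -0.69 in the same order. Spata5, Spata5l1 and Spata22 became -1.59, -1.08 and -1.45 in KO at 25 dpp. Values called in neither the main edgeR fit nor the alternative are left out of the following count. Of the 1357 other single values under the alternatives, 1138 kept direction and side of the threshold, 148 lost and 62 gained a call, and 9 turned.

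Same-numbered libraries had correlations of their deviations between -0.0877 and 0.361, the highest for WT at 19 dpp with KO at 25 dpp. The labels give these libraries only a number in common, and a shared batch was not tested. A fit with a replicate block gave 12 lower KO effects at 25 dpp in place of 9 and left the other counts at those of the fit without it, although Spata31d1a lost and Spata21 gained a call between the ages in KO. The added lower effects were those of Spata3, Spata25 and Spata31d1d, whose difference from WT at 25 dpp the filter fixed. Genes near 0 are limited by depth: 3 counts over a group correspond to between 0.0424 and 0.0508 CPM.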
